A study of Bos taurus with 28 samples.

Results

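The comparison asked what P4 added to the hepatic transcriptome of cows that already received E2-17β. All arrays titled E2P4T were set against all arrays titled E2T, 7 against 7, so that 14 of the 28 arrays of the series entered and no untreated array was used. E2P4T cows carried an ear implant releasing E2-17β together with vaginal P4 devices, whereas E2T cows carried the ear implant alone, and both lasted 14 days. All animals were ovariectomized, non-lactating Holstein cows, so ovarian steroids were lacking in both groups, and both carried the E2-17β implant. The study reports a lower mean circulating estradiol level in E2P4T than in E2T. The groups were therefore not matched for estradiol level, and the effect of that difference was not tested. The study rotated cows through the treatments in a Latin square, but the labels name neither cow nor period, and differences between cows therefore stayed in the spread between arrays. The source label of E2P4T calls both hormones intradermal, while the treatment protocol gives P4 by vaginal device, and the vaginal route is used here.

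Progesterone classically acts through its nuclear receptor PGR, which in the uterus is induced by estrogen and in turn restrains many estrogen responses. The liver is not a classical target of P4: it clears the hormone through reductases and cytochromes P450, carries membrane-associated progesterone binding proteins such as PGRMC1, and senses steroids through the nuclear receptor PXR. Estrogens reach hepatocytes through ESR1, and the liver answers them in many species with altered plasma proteins, lipid metabolism and growth hormone signalling.

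A probe set combines several short probes against the same transcript, and each gave 1 signal intensity per array. These intensities were compared as log2 signals. A log2 fold change below is the mean of E2P4T minus the mean of E2T, so that 1 is a doubling and a negative value means lower in E2P4T. Of 24016 probe sets other than controls, 13292 carried exactly 1 gene symbol. They stood for 9155 genes, and where a gene had several probe sets the one with the highest mean signal was taken. Signals of different probe sets were not set against each other.

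The array labelled E2P4T 5 did not match the liver of its label. The study left out an E2P4T array as a signal outlier and analysed 7, the same number as titled E2P4T here. It analysed more E2T arrays than the 7 here. The sources used do not say whether the array left out was E2P4T 5. The mean log2 signal of 20 hepatocyte markers was 9.76 on this array, whereas it lay between 15.07 and 15.69 on the other 13 arrays. Albumin (ALB), the main plasma protein made by hepatocytes, had a log2 signal of 12.06 there against 16.57 to 17.92 elsewhere, and APOB, the structural protein of secreted lipoproteins, had 5.00 against 15.21 to 15.93. Of the 20 hepatocyte markers, 19 had their lowest signal of all 14 arrays on E2P4T 5, beside 20.2% of all genes.

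Markers of the kidney nephron ran the other way on that array. Their mean over 18 genes was 11.50 on E2P4T 5 and 5.90 to 7.29 on the other 13. Of the 18, 17 were highest there, beside 39.9% of all genes. The median log2 signal of this array was also higher, at 9.0 against 7.48 to 8.22 on the other 13. FXYD2, a regulatory subunit of the renal sodium pump, reached 15.92 against at most 7.46 elsewhere. CDH16, a kidney cadherin, reached 14.42 against at most 8.17, and UMOD, the uromodulin of urine, 11.33 against at most 8.61. FXYD2 and CDH16 were chosen after their values were seen. The cholangiocyte markers, several of which kidney epithelium also expresses, averaged 11.82 on E2P4T 5 against 8.26 to 9.43. In bulk tissue, fewer cells of a type and less RNA per cell cannot be told apart.

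E2P4T 5 also correlated with the other arrays at a median r of 0.66 over probe sets, while the others had medians of 0.85 to 0.91. It held the highest or lowest value of 60.2% of the 9155 genes. E2T 3 came next, with 27.7% and a median r of 0.85, but its hepatocyte markers were at liver level. Counts, list medians and the main genes are therefore given with all 14 arrays and without E2P4T 5, and single members of lists are given without E2P4T 5 unless stated.

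**Figure D1:**
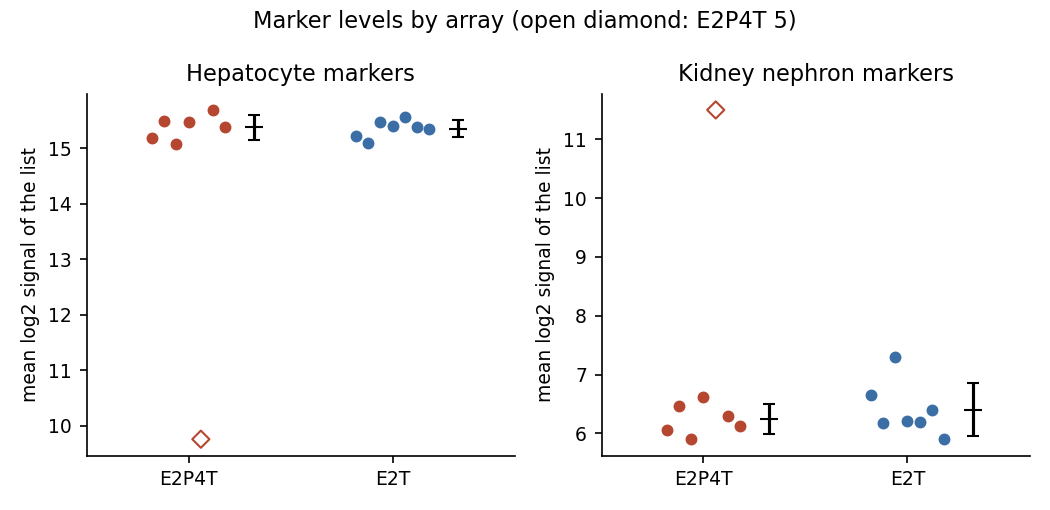
Mean log2 signal of 20 hepatocyte markers (left) and 18 kidney nephron markers (right) on each array of E2P4T and E2T; each point is 1 array, the open diamond is E2P4T 5, and the bars give mean and SD without it. The diamond stands at 9.76 for hepatocyte and 11.50 for kidney markers, away from the other 13 arrays.

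No gene passed the test in either direction. With all 14 arrays, 0 of 9155 genes (0%) had an adjusted p under 0.05 in limma, and the smallest adjusted p was 1. The count was again 0 (0%) without E2P4T 5, and again the smallest adjusted p was 1. Over all 24016 probe sets, named or not, 0 passed in both array sets. Robust regression in limma called 1 probe set in each array set, which has no symbol listed.

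At an unadjusted p under 0.05, 99 genes (1.08%) were higher and 34 (0.371%) lower in E2P4T with all 14 arrays. Leaving out E2P4T 5 gave 61 higher (0.666%) and 94 lower (1.03%). Over probe sets the counts were 427 higher and 110 lower with all arrays, and 263 higher and 298 lower without that array. In both directions together these were 2.24% and 2.34% of the probe sets, below the 5% that the threshold alone would pass under no difference. Without E2T 3 as well as E2P4T 5, 153 genes were higher and 122 lower at that threshold, and 0 passed after adjustment.

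The split by direction depended on E2P4T 5 and on scaling. With all 14 arrays, 79.5% of the probe sets at an unadjusted p under 0.05 were higher in E2P4T, but the share was 56.3% after quantile normalization and 52.1% after centring each array on its median. The median log2 fold change over genes was -0.17 after median centring and 0.04 with the deposited scaling. Leaving out E2P4T 5, the share was 46.9% with the deposited scaling, 46.7% after quantile normalization and 43.3% after centring.

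The intervals bound what could have gone unseen. The 4578 genes with a mean log2 signal of at least the median of 9.34 are called brighter genes below. Among them, the 95% interval reached a median of 0.41 on the log2 scale to either side without E2P4T 5 and 0.49 with all arrays. For 4502 of these genes (98.3%) the interval without E2P4T 5 lay within a 2-fold difference either way, and for 3179 (69.4%) within 1.5-fold. None of the 4578 genes differed in mean by more than 2-fold without that array, whereas 38 did with it. For the dimmer genes the median reach was 0.96, so that 2-fold differences of dim genes were often not detectable. The adjusted test also missed many 2-fold changes at higher signal. In simulated data, 100 changes of 2-fold and 100 of 4-fold were planted together in probe sets at or above the median signal. Values were drawn independently for each probe set and array, so recovery may differ for real arrays or for fewer changes. The test recovered 31 of 100 planted 2-fold changes with all 14 arrays and 54 of 100 without E2P4T 5. For 4-fold changes it recovered 81 and 97 of 100. False calls numbered 5 with all 14 arrays and 10 without E2P4T 5.

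**Figure D2:**
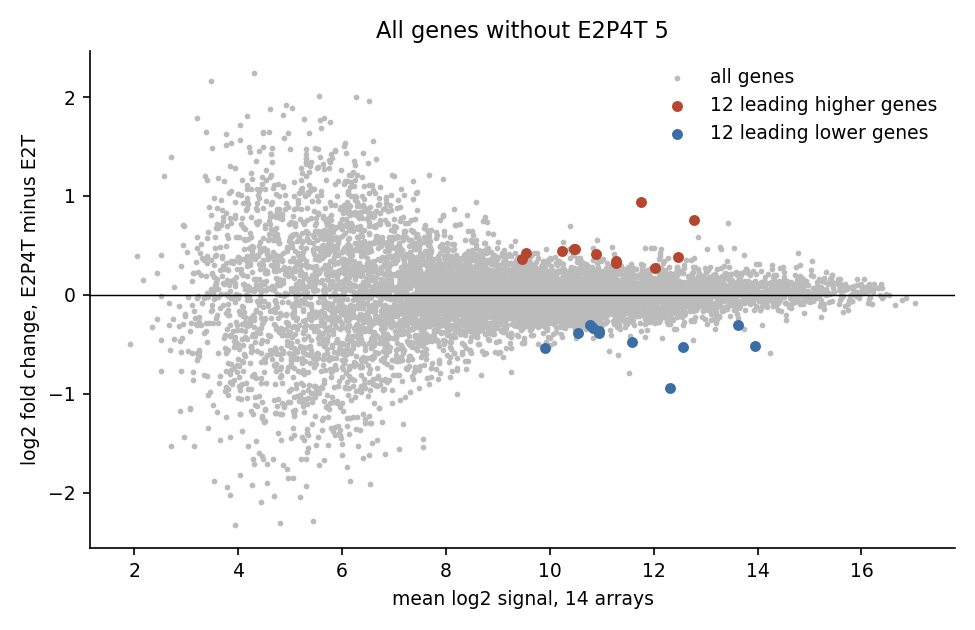
Log2 fold change of E2P4T minus E2T without E2P4T 5 (y axis) against the mean log2 signal over 14 arrays (x axis) for 9155 genes; grey points are all genes, and coloured points the 12 leading higher and 12 leading lower genes. The scatter narrows with signal, and no gene above the median signal of 9.34 lies beyond 1 on the y axis.

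The genes named next led by the larger of the unadjusted p-values of both array sets, among the brighter genes, 12 in each direction. None passed the adjusted test, and they are a description of where the largest ratios of difference to spread lay. Only 6 of the 12 higher and 7 of the 12 lower ones had an unadjusted p under 0.05 in both sets.

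IGFBP2, which binds insulin-like growth factors in plasma, had a lowest, median and highest log2 signal of 11.41, 12.02 and 12.98 on E2P4T arrays, against 10.11, 11.25 and 12.28 on E2T arrays. All 7 E2P4T arrays lay above the mean of E2T, but the groups overlapped. The log2 fold change was 0.81 with all arrays (95% interval 0.13 to 1.49) and 0.94 without E2P4T 5 (0.30 to 1.58), a 1.92-fold difference. It was 0.73 when E2T 3, the lowest array for IGFBP2, was left out too.

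OAT, the mitochondrial ornithine aminotransferase, ran from 11.74 through 13.28 to 15.36 in E2P4T and from 11.20 through 12.68 to 12.94 in E2T. The value of 15.36 came from E2P4T 5, and 1 E2P4T array lay among the E2T arrays. Its log2 fold change was 1.10 with all arrays (0.21 to 1.99) and 0.76 without E2P4T 5 (0.09 to 1.43).

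NOSTRIN, an adaptor that binds endothelial nitric oxide synthase, had 10.53, 10.66 and 10.94 in E2P4T and 9.74, 10.39 and 10.62 in E2T. The 4 highest values of all 14 arrays were E2P4T, and the ranges of the groups shared the stretch between 10.53 and 10.62. The difference was 0.48 with all arrays and 0.46 without E2P4T 5 (0.10 to 0.82).

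UBA2, a subunit of the enzyme that activates SUMO, had 10.63, 11.19 and 11.31 in E2P4T and 10.45, 10.62 and 11.03 in E2T. Of 7 E2P4T arrays, 5 exceeded the highest E2T array. The log2 fold change was 0.42 with and 0.41 without E2P4T 5 (0.08 to 0.74).

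RCN2, a calcium-binding protein of the endoplasmic reticulum, had 9.15, 9.91 and 10.03 in E2P4T and 8.77, 9.44 and 9.59 in E2T, and 6 of 7 E2P4T arrays were above every E2T array. LAMTOR1, which anchors the Ragulator complex to lysosomes, had 11.27, 11.40 and 11.70 in E2P4T and 10.52, 11.04 and 11.62 in E2T. Here the groups overlapped widely, because 1 E2T array was nearly as high as the highest E2P4T array. Without E2P4T 5, the differences were 0.42 (0.02 to 0.82) for RCN2 and 0.34 (0.01 to 0.68) for LAMTOR1.

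The other 6 leading higher genes differed by 0.27 to 0.46 without E2P4T 5, each with a lower interval end rounding to 0 or less. They were ENPEP, an aminopeptidase that cleaves angiotensin II, GPN1, a GTPase of RNA polymerase II import, RFK, the riboflavin kinase, ERBIN, a scaffold that binds ERBB2, DNAJC12, a cochaperone of aromatic amino acid hydroxylases, and SRSF1, a splicing factor. With all arrays ENPEP was at 0.57 and GPN1 at 0.59, against 0.32 and 0.36 without E2P4T 5. ERBIN had 2 further probe sets of low signal that pointed the other way.

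**Figure D3:**
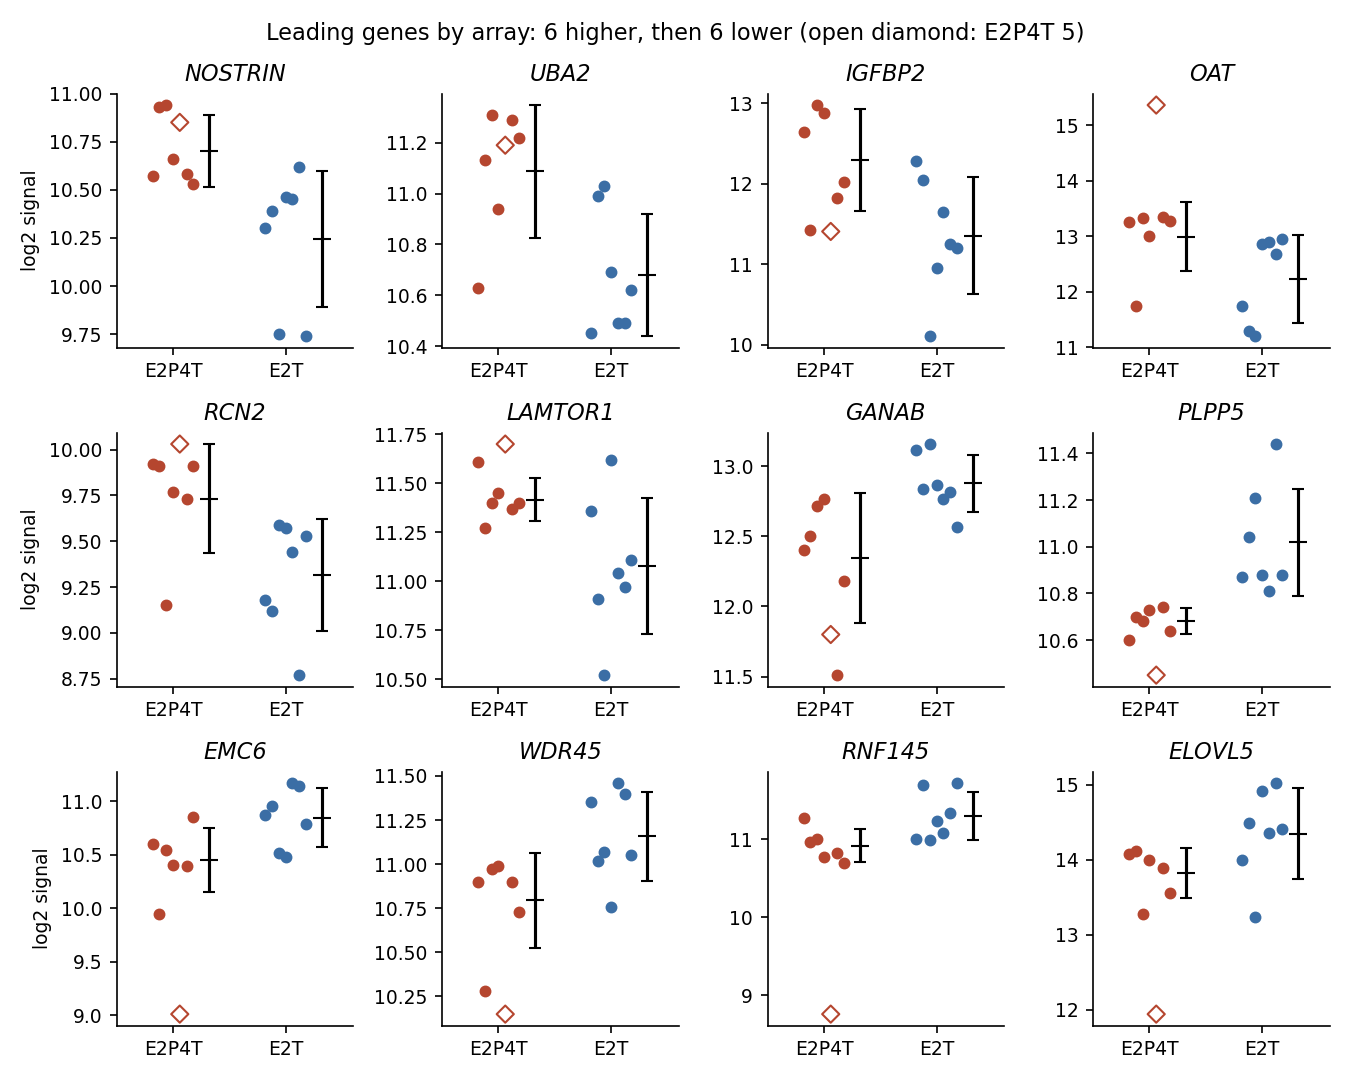
Log2 signal of the 6 leading higher genes (NOSTRIN, UBA2, IGFBP2, OAT, RCN2, LAMTOR1) and the 6 leading lower genes (GANAB, PLPP5, EMC6, WDR45, RNF145, ELOVL5) on each array of E2P4T and E2T; the open diamond is E2P4T 5, and bars give mean and SD without it. The y axes differ and do not start at 0. Only for PLPP5 do all 7 E2P4T arrays lie below all 7 E2T arrays.

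Among the lower genes, PLPP5, a phospholipid phosphatase, had log2 signals of 10.45, 10.68 and 10.74 in E2P4T and 10.81, 10.88 and 11.44 in E2T. The groups did not overlap, which held for 1 of 9155 genes with all arrays (0.0109%). The size was modest, at -0.37 with all arrays (-0.68 to -0.06) and -0.34 without E2P4T 5 (-0.63 to -0.05), a ratio of 0.791. A dimmer probe set of PLPP5 gave -0.35 without E2P4T 5, with an interval from -1.69 to 1.00.

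Without E2P4T 5 the groups were apart for 2 genes (0.0218%), PLPP5 and EFEMP2, an extracellular matrix protein of elastic fibres. EFEMP2, named after its values were seen, had 4.09, 5.39 and 6.53 on the 6 E2P4T arrays and 6.65, 7.05 and 8.46 on E2T arrays. On E2P4T 5 it was 8.48, above every E2T array. The difference without that array was -1.91 (-2.96 to -0.86) at low signal, and -1.46 with it.

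GANAB, the catalytic subunit of glucosidase II that trims new glycoproteins, had 11.51, 12.40 and 12.77 in E2P4T and 12.57, 12.84 and 13.16 in E2T. All 7 E2P4T arrays lay below the mean of E2T, and 5 below its lowest array. The log2 fold change was -0.61 with all arrays and -0.53 without E2P4T 5 (-0.92 to -0.15). The other probe set of GANAB gave 0.11 with all arrays and 0.00 without E2P4T 5 (-0.40 to 0.39), so the probe sets of this gene disagreed.

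ELOVL5, an elongase of polyunsaturated fatty acids, had 11.94, 13.89 and 14.12 in E2P4T and 13.23, 14.41 and 15.02 in E2T. The value of 11.94 was E2P4T 5, and without it the E2P4T arrays lay inside the range of E2T. The difference was -0.79 with and -0.52 without that array (-1.03 to -0.02).

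RNF145, a ubiquitin ligase of the endoplasmic reticulum, had 8.76, 10.82 and 11.27 in E2P4T and 10.99, 11.24 and 11.72 in E2T. Again E2P4T 5 gave the lowest value, and the difference was -0.68 with it and -0.37 without (-0.71 to -0.04). EMC6, of the complex that inserts membrane proteins, was at -0.60 with and -0.39 without E2P4T 5 (-0.75 to -0.04). WDR45, which takes part in autophagosome formation, was at -0.46 and -0.37 (-0.70 to -0.03). For these genes 4 or fewer of the 6 remaining E2P4T arrays were below the lowest E2T array. A dimmer probe set of EMC6 pointed the other way, at 0.59 (-0.80 to 1.99) without E2P4T 5.

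The other 6 leading lower genes lay between -0.94 and -0.30 without E2P4T 5. The lowest was GRO1, a neutrophil-attracting chemokine, at -0.94 with an interval from -1.91 to 0.03. CISH, a suppressor of cytokine signalling that growth hormone induces through STAT5, was at -0.54 (-1.05 to -0.02). MAPK6, an atypical MAP kinase, NUDT5, a hydrolase of ADP-ribose, IFNAR2, a subunit of the type I interferon receptor, and C4BPB, a chain of the complement inhibitor C4b-binding protein, had values of -0.31, -0.30, -0.39 and -0.48. A dimmer probe set of NUDT5 pointed the other way, at 0.54 (-0.46 to 1.54).

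The receptors and binding proteins of P4 showed no called difference. PGR had log2 signals of 4.73, 6.21 and 8.81 in E2P4T and 4.27, 6.15 and 8.07 in E2T, dim in both groups. E2P4T 5 gave the 8.81, and all other E2P4T arrays lay inside the range of E2T. The difference without that array was -0.22 with an interval from -1.39 to 0.95, which leaves differences of more than 2-fold in the lower direction within it.

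PGRMC1, the membrane-associated progesterone binding protein, had 11.03, 14.03 and 14.39 in E2P4T and 12.67, 14.02 and 14.47 in E2T. The medians nearly coincided. Its log2 fold change was 0.08 without E2P4T 5 (-0.46 to 0.61) and -0.35 with it. Leaving out E2T 3 besides E2P4T 5 gave -0.13 for PGRMC1 and 0.10 for PGR, so neither had a stable sign. NENF, a secreted member of the same family, was at -0.12 (-0.50 to 0.26) without that array, and the 6 measured genes of 13 listed as P4 binders had a median of -0.10.

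ESR1, the receptor of E2-17β, had 2.79, 5.95 and 8.59 in E2P4T and 2.14, 3.25 and 5.02 in E2T. Of 7 E2P4T arrays, 5 lay above all E2T arrays, and E2P4T 5 was the highest. The log2 fold change was 1.97 with all arrays (0.30 to 3.64) and 1.48 without it (-0.03 to 2.98), from a mean log2 signal of 4.65, well below the median of 9.34 over genes. ESR2, the second estrogen receptor, was at 1.16 (-0.55 to 2.88), also at low signal. Neither passed the adjusted test.

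NR3C1, the glucocorticoid receptor, which P4 can also occupy, had 9.96, 10.54 and 10.93 in E2P4T and 9.93, 10.33 and 10.68 in E2T. The groups overlapped almost fully. Its difference was 0.24 (-0.12 to 0.61) without E2P4T 5 and 0.16 with all arrays. Chaperones of steroid receptors numbered 16, with a median of -0.06 without E2P4T 5, PTGES3 (p23) highest at 0.15 and STIP1 (HOP) lowest at -0.31 among the brighter genes. Of 12 coregulators, the median was -0.04. No member of these lists had an unadjusted p under 0.05 without that array, against 0.666% and 1.03% of all genes.

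**Figure D4:**
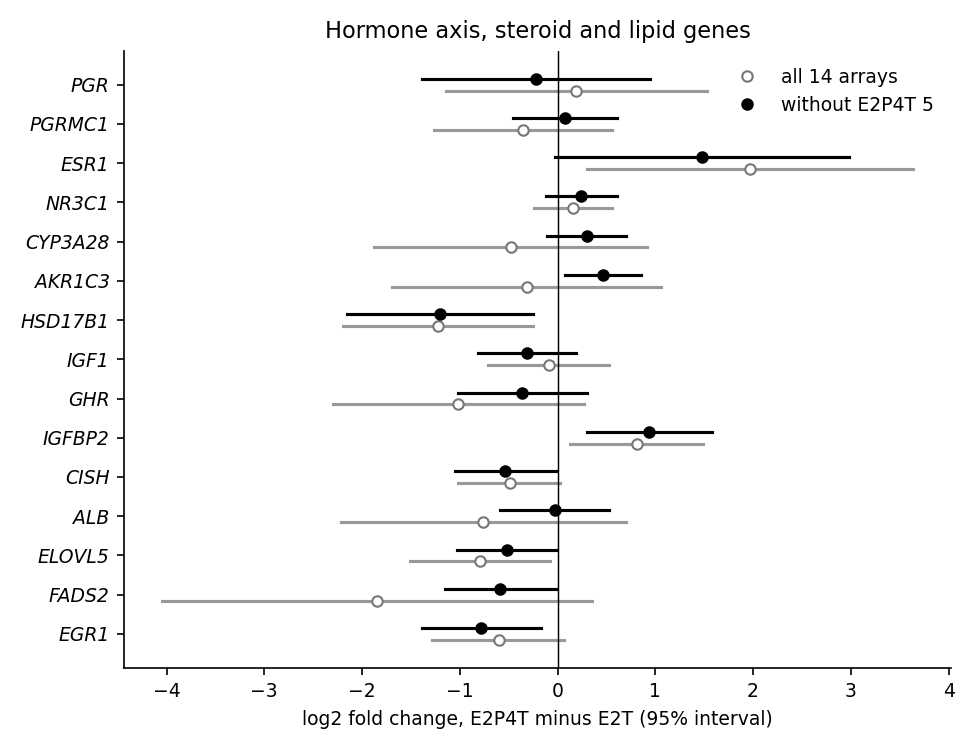
Log2 fold change of E2P4T minus E2T (x axis) with 95% intervals for 15 genes of hormone, steroid and lipid pathways; black, without E2P4T 5, grey and open, all 14 arrays. Intervals without E2P4T 5 cross 0 for PGR, PGRMC1, ESR1, NR3C1, CYP3A28, IGF1, GHR and ALB, and the intervals of CYP3A28, GHR, ALB and FADS2 are wider with that array.

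In the growth hormone and IGF axis, IGFBP2 was the highest gene of the list and CISH the lowest of its brighter genes. Of its 20 measured genes, 6 had positive and 14 negative values without E2P4T 5, with a median of -0.14 beside 0.01 over all genes. IGF1, the main growth factor secreted by liver, had 8.57, 9.34 and 10.83 in E2P4T and 8.98, 9.79 and 10.19 in E2T. The 10.83 was E2P4T 5, and the difference without it was -0.31 (-0.81 to 0.19). Another probe set of IGF1 gave -0.64 without that array, with an interval from -1.18 to -0.10.

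GHR, the growth hormone receptor, had 4.64, 8.96 and 10.12 in E2P4T and 8.38, 9.78 and 10.18 in E2T. E2P4T 5 gave the 4.64, and the remaining E2P4T arrays fell inside the range of E2T. The difference was -0.36 (-1.02 to 0.30) without it, while the 10 dimmer probe sets of GHR had values of -1.95 to 1.21, 5 in each direction. CISH had 8.92, 9.76 and 10.26 in E2P4T and 9.31, 10.10 and 10.90 in E2T, and 6 of 7 E2P4T arrays lay below the E2T mean.

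Steroid and xenobiotic metabolism, the route by which liver clears P4, had list medians near 0 without E2P4T 5. CYP3A28, a bovine member of the cytochrome P450 family that oxidises steroids and drugs, had 9.89, 15.31 and 15.62 in E2P4T and 14.65, 15.16 and 15.45 in E2T. E2P4T 5 gave the 9.89, and 2 of the other E2P4T arrays exceeded every E2T array. The difference was 0.30 (-0.11 to 0.70) without that array and -0.48 with it. The 24 measured genes of the xenobiotic response had a median of 0.07 without E2P4T 5 and -0.34 with it, and POR, the electron donor of cytochromes P450, was lowest of the brighter genes at -0.25 (-0.71 to 0.20).

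Of 29 genes of steroid metabolism, 1 was higher and 1 lower at an unadjusted p under 0.05 without E2P4T 5, beside 0.666% higher and 1.03% lower over all genes. AKR1C3, a reductase of steroids including P4 and 17-ketosteroids in human tissue, had 8.73, 14.14 and 14.48 in E2P4T and 12.90, 13.80 and 14.09 in E2T. All 6 E2P4T arrays other than number 5 were above the mean of E2T, and 4 above its highest array. The log2 fold change was 0.47 without E2P4T 5 (0.08 to 0.85) and -0.31 with it.

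HSD17B1, which reduces estrone to E2-17β, had 4.76, 5.81 and 6.61 in E2P4T and 6.13, 6.80 and 7.94 in E2T. All 7 E2P4T arrays were below the E2T mean and 5 below its lowest array, at low signal. The difference was -1.20 (-2.15 to -0.25) without E2P4T 5 and -1.22 with it. Both AKR1C3 and HSD17B1 were named after their values were seen.

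Plasma proteins that estrogen regulates in other species had no called member. The 23 measured ones had a median of 0.05 without E2P4T 5, with 14 positive and 9 negative values. Of these, 0 had an unadjusted p under 0.05, beside 0.666% higher and 1.03% lower over all genes. With all arrays the median was -0.78, beside 0.04 over all genes. SERPINA6, the corticosteroid binding globulin that also carries P4, was highest at 0.47 (-0.11 to 1.04), and APOA1, the main protein of HDL, lowest at -0.35 (-0.74 to 0.04). ALB was at -0.03 (-0.59 to 0.53) without E2P4T 5 and -0.76 with it.

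The other secreted and metabolic functions of hepatocytes had the same shape. Medians without E2P4T 5 were 0.03 over 21 acute phase genes, 0.02 over 39 complement and coagulation genes and -0.03 over 11 bile acid genes. With it they were -0.75, -0.67 and -0.59. SAA3, an acute phase apolipoprotein, was highest of its list at 0.53 (-0.09 to 1.16), and the bile acid uptake carrier SLCO1B3 was at 0.15 (-0.25 to 0.55). The kidney markers described above were high on the array that made this difference.

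In carbohydrate and nitrogen metabolism, 14 genes of insulin signalling had a median of -0.02, 29 genes of glucose and propionate use had one of 0.01 and 31 genes of the urea cycle and amino acid breakdown one of 0.06 without E2P4T 5. G6PC1, which releases free glucose from the liver, was at 0.41 (-0.04 to 0.86). ACSS2, which activates acetate in the cytosol, was at -0.57 (-1.27 to 0.13). MAT1A, which makes S-adenosylmethionine in hepatocytes, was at 0.46 (-0.10 to 1.02). No gene of these lists reached an unadjusted p under 0.05 without that array. Over all genes 0.666% were higher and 1.03% lower, so few could be awaited in lists of this size.

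In lipid synthesis, FADS2, the delta-6 desaturase that works in the same pathway as ELOVL5, had 5.75, 14.53 and 15.24 in E2P4T and 14.35, 15.24 and 15.89 in E2T. E2P4T 5 gave the 5.75, and of the other 6 arrays 1 lay above the E2T mean. The difference without E2P4T 5 was -0.59 (-1.15 to -0.02). ELOVL5 and FADS2 were the 2 of 28 genes of fatty acid and triglyceride synthesis at an unadjusted p under 0.05, both lower, beside 1.03% lower over all genes, and the median of that list was 0.00.

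SREBF1, the transcription factor of lipid synthesis, was at 0.31 (-0.16 to 0.78), opposite in sign to ELOVL5 and FADS2. A further SREBF1 probe set, at a mean log2 signal of 10.06, gave 0.06 (-0.37 to 0.49), and -0.17 with all arrays. Dimmer ones gave 0.93 (-0.19 to 2.04) and 0.29 (-1.63 to 2.20) without E2P4T 5. The 22 cholesterol genes had a median of -0.10, with 7 positive and 15 negative, from INSIG1, the sterol sensor that retains SREBP, at 0.22 (-0.59 to 1.02) to FDPS, which makes farnesyl diphosphate, at -0.44 (-0.99 to 0.12). The 26 genes of fatty acid oxidation had a median of 0.02.

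**Figure D5:**
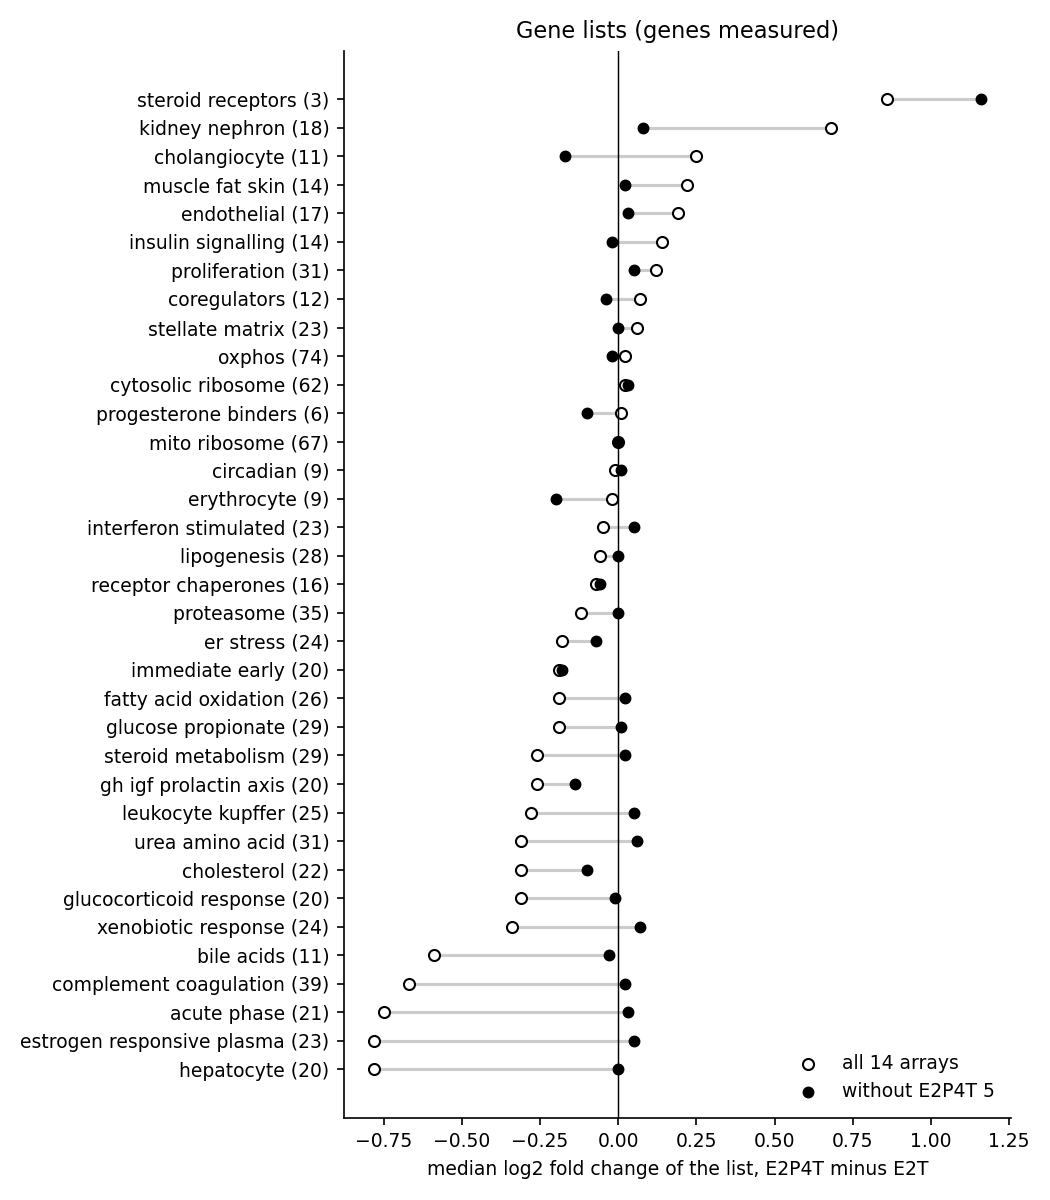
Median log2 fold change of E2P4T minus E2T over the measured genes of each list (number in brackets); open circles, all 14 arrays, filled circles, without E2P4T 5, joined by a line. With all arrays the hepatocyte list stands at -0.78 and the kidney nephron list at 0.68; without E2P4T 5 they stand at 0.00 and 0.08.

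Machinery common to all cells had narrow intervals. Without E2P4T 5, the 74 genes of oxidative phosphorylation had a median of -0.02 and ranged from -0.29 for NDUFC1 to 0.30 for NDUFC2, both subunits of complex I. All 74 intervals lay inside a 2-fold difference. The 67 mitochondrial ribosomal genes had a median of 0.00, the 62 cytosolic ribosomal genes 0.03 and the 35 proteasome genes 0.00, and 64, 60 and 34 of their intervals lay inside 2-fold. No gene of these 4 lists had an unadjusted p under 0.05, beside 0.666% higher and 1.03% lower over all genes.

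Genes of the endoplasmic reticulum stress response had a median of -0.07 over 24, with 6 positive and 18 negative. CANX, the lectin chaperone that receives the glycoproteins trimmed by glucosidase II, was lowest of the brighter genes at -0.31 (-0.69 to 0.06). The 20 glucocorticoid-responsive genes had a median of -0.01 and ranged from -0.75 to 0.61. Among the brighter ones, TDO2, the tryptophan dioxygenase, was highest at 0.24 and MT1A, a metallothionein, lowest at -0.41.

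Immediate early genes had a median of -0.18 over 20, with 7 positive and 13 negative without E2P4T 5. EGR1, a transcription factor induced within minutes of growth stimuli, had 7.92, 9.07 and 10.02 in E2P4T and 8.72, 9.64 and 10.27 in E2T. The 10.02 was E2P4T 5, and the other 6 E2P4T arrays were all below the E2T mean. The difference was -0.78 (-1.39 to -0.17) without it and -0.60 with it, and EGR1 was named after its values were seen.

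Of 31 proliferation genes the median was 0.05, and 1, CCNB1 (cyclin B1), was lower at an unadjusted p under 0.05, at -1.72 (-3.14 to -0.30) from a mean log2 signal of 4.87. Of 23 interferon-stimulated genes the median was 0.05, and 1, RSAD2 (viperin), was higher, at 0.71 (0.08 to 1.33). Over all genes 1.03% were lower and 0.666% higher at that threshold. The 9 clock genes had a median of 0.01. CCNB1 and RSAD2 were named after their values were seen.

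Markers of the cell types that a liver biopsy holds were compared as list means. Without E2P4T 5, the mean log2 signal of 20 hepatocyte markers was 15.38 ± 0.23 in E2P4T (SD, n = 6) and 15.36 ± 0.15 in E2T (SD, n = 7). Leukocyte and Kupffer cell markers averaged 9.48 ± 0.23 in E2P4T and 9.45 ± 0.26 in E2T, stellate cell and matrix markers 8.73 ± 0.15 and 8.75 ± 0.21, and endothelial markers 8.63 ± 0.26 and 8.61 ± 0.39. These 4 differences were smaller than the SD of either group. Cholangiocyte markers averaged 8.47 ± 0.16 in E2P4T and 8.69 ± 0.40 in E2T, a gap above the SD of E2P4T and below that of E2T. Markers of bile duct cells, red cells and muscle, fat and skin had medians of -0.17, -0.20 and 0.02 in log2 fold change without that array.

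Some single markers had an unadjusted p under 0.05 without E2P4T 5, a threshold that 0.666% of all genes passed as higher and 1.03% as lower. PDGFRA, 1 of 23 stellate cell and matrix markers, a receptor of stellate cells and fibroblasts, was at 0.54 (0.08 to 1.00). Dimmer probe sets of PDGFRA gave -0.26 (-1.26 to 0.73) and 0.88 (-0.95 to 2.71). In the nephron list 3 of 18 genes were lower: AQP3, SLC5A2 and ATP6V1B1, a water channel, a glucose carrier and a proton pump subunit, were at -1.33, -1.44 and -1.88, all at mean log2 signals of 6.15 or less. The list itself had a median of 0.08, with 10 positive and 8 negative. These 4 genes were named after their values were seen.

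A last set held example genes of the treatment clusters in the study, which were compared last. Of them 17 were measured. They were selected on these samples by contrasts that include both groups, so that they are no independent evidence of a direction. Without E2P4T 5 none of the 17 had an unadjusted p under 0.05, beside 0.666% higher and 1.03% lower over all genes. The farthest from 0 were CORO2A, an actin-binding coronin, at 0.90 (-0.05 to 1.85), and EHBP1L1, an adaptor of membrane trafficking, at -0.88 (-1.82 to 0.06). Both were dim, at mean log2 signals of 6.34 and 6.87. The other probe sets of CORO2A, dimmer still, went the other way, at -0.08 (-1.93 to 1.77) and -1.01 (-2.50 to 0.47).

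CORO2A had 6.31, 6.88 and 7.59 in E2P4T and 5.13, 5.68 and 7.30 in E2T, with all 7 E2P4T arrays above the E2T mean. EHBP1L1 had 5.13, 6.57 and 7.69 in E2P4T and 6.71, 7.44 and 7.60 in E2T. The groups overlapped for both genes. CDK2, a cyclin-dependent kinase, was at -0.14 (-0.59 to 0.30), PPP2R5E, a regulatory subunit of protein phosphatase 2A, at 0.25 (-0.18 to 0.69), and ADRB3, the beta-3 adrenergic receptor, at 0.17 (-0.94 to 1.29). Tables of treatment-responsive genes in the study were likewise drawn from its own arrays, so their genes are no independent evidence of a direction either. The 31 measured genes of a table of estradiol-responsive genes had a median of -0.11. They held EFEMP2 and ELOVL5, described above, the 2 that were lower at an unadjusted p under 0.05. The 16 of a table for the combined treatment had a median of 0.04. Of them 1 was lower at that threshold, KCNJ15, a potassium channel, at -1.72 (-2.99 to -0.44) from a mean log2 signal of 5.56. Over all genes 1.03% were lower. KCNJ15 was named after its values were seen.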

How the data were processed

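Liver mRNA of 14 arrays was analysed. Per the labels and the study's methods, the authors labelled cRNA with biotin, used Affymetrix bovine arrays and deposited linear signal intensities from MAS5, which scales each array. Precision is limited by how many arrays there are. The deposited intensities were converted to log2 values and scaled no further. R 4.3.3 and limma 3.58.1 (lmFit, eBayes with a variance trend) compared E2P4T with E2T over all 24016 probe sets other than 112 controls, with Benjamini and Hochberg adjustment and a threshold of 0.05. The mixed model of the study needs cow and period, which the labels do not give. Figures were drawn with Python 3.11.15 and matplotlib 3.10.9.

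Symbols came from the platform annotation: 13292 probe sets had 1 symbol, 86 several and 10638 none listed. Of 1170 entries in 42 gene lists, 924 were measured, and lists were described by counts and medians, with no test. Named genes were the 12 leading ones per direction by the rule in the text, the highest and lowest member of each list among genes at or above the median signal, and fixed hormone axis and cluster genes. Genes and lists were chosen with earlier results of these data known. The fit was tested on simulated data with known changes. Alternatives were quantile normalization, median centring, only probe sets at or above the median signal, log2 of signal plus 50, all groups in the fit, no variance trend, array weights, robust regression, replicate blocks and leaving out each array. Array images and detection calls were not used here.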

Additional observations from a re-analysis of the deposited data

Results flagged for a closer look

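Single arrays stood far from the rest of their group in 16 of 60 checks of a gene or marker mean within a group. The limit would mark about 1 in 20 groups of unrelated values by chance. These checks share arrays and related markers, so their count cannot be set against that rate. Of the 16, 13 were E2P4T 5. On that array, the mean log2 signal was 9.76 for hepatocyte, 11.50 for kidney nephron, 8.13 for leukocyte and Kupffer cell, 11.82 for cholangiocyte and 8.62 for muscle, fat and skin markers, and 18.27 for the hybridisation spikes added to every sample. Its log2 signals stood apart for RNF145 at 8.76, ELOVL5 at 11.94, PGR at 8.81, PGRMC1 at 11.03, CYP3A28 at 9.89, GHR at 4.64 and ALB at 12.06. The remaining 3 were RCN2 on E2P4T 3 at 9.15, PGRMC1 on E2T 3 at 12.67 and the muscle, fat and skin markers on E2T 3 at 8.01.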

How the results depend on the processing

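The adjusted test gave 0 probe sets in both array sets under every alternative except robust regression, which called 1 with all arrays and 1 without E2P4T 5. At an unadjusted p under 0.05, leaving out 1 of all 14 arrays gave 263 to 744 higher and 93 to 298 lower probe sets, and leaving out a further array besides E2P4T 5 gave 217 to 538 higher and 254 to 405 lower. The counts of 744 and 538 came without E2T 3. For all 14 arrays, higher counts were 66 among probe sets at or above the median signal and 801 with robust regression. Lower counts were 258 after quantile normalization, 271 after median centring, 35 at or above the median signal, 348 with array weights and 354 with robust regression. Without E2P4T 5, there were 57 higher and 68 lower at or above the median signal, where fewer probe sets were tested, 633 and 597 with robust regression, and 450 higher with array weights. A replicate block gave 399 higher and 121 lower with all arrays, and 265 and 287 without E2P4T 5. The Latin square put the same cows through the treatments, but the labels do not say which arrays share a cow. Same-numbered arrays correlated at -0.169 to 0.29, and 1 of 7 correlated best with its own number. A term for array numbers 1 to 4 against 5 to 7, chosen after seeing the data, gave 446 higher and 128 lower with all arrays.

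For 50 genes (leading, fixed hormone axis and cluster genes), fold changes were refitted from all 14 arrays. The settings were quantile normalization, median centring, the signal limit, replicate blocks and leaving out each array. The signal limit and the blocks leave a fold change as it is. In these runs 37 of the 50 kept their direction, the 24 leading ones among them. Those 24 were picked for small p and the same direction with and without E2P4T 5, so this is no independent support. Quantile normalization turned PGR to -0.03 and ERCC3 to -0.02. Median centring turned PGR to -0.02, ERCC3 to -0.08, NR3C1 to -0.05, AP4M1 to -0.01, TRPC2 to -0.05 and PI4KA to -0.02. Leaving out each array in turn gave -0.22 to 0.51 for PGR, -0.55 to 0.08 for PGRMC1, -0.66 to 0.30 for CYP3A28, -0.31 to 0.07 for IGF1, -0.95 to 0.47 for UMOD, -0.64 to 0.11 for SPTSSB, -0.03 to 0.29 for AP4M1, -0.47 to 0.05 for FBXO15, -0.25 to 0.37 for TRPC2, -0.04 to 0.20 for ERCC3 and -0.35 to 0.24 for VPS53. For PGRMC1, CYP3A28, SPTSSB, AP4M1, TRPC2 and VPS53 E2P4T 5 was the only array whose removal turned the sign. The cause was not tested. Dim probe sets, and a cow and period that the labels do not give, limit what these arrays can resolve.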
